A study of Mus musculus with 8 samples.

Results

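The sulfation machinery of the mouse liver was followed through 10 genes: the cytosolic sulfotransferases Sult1a1, Sult1b1, Sult1c2, Sult1d1, Sult2a8 and Sult5a1, the sulfate-activating enzymes Papss1 and Papss2, and the transporters Slc35b2 and Slc26a1. They were listed by name for their role in sulfation, with earlier results of these data known, and make up 10 of the 35975 genes to which the transcripts of the deposited table were assigned. Estimated counts of all transcripts of a gene were summed. Liver RNA came from C57BL/6 mice (C57BL/6J in the study's methods) that received an infusion into the portal vein from an implanted pump over 2 weeks. The infusate was 4-HPAA (4-hydroxyphenylacetic acid) in the treated group and Normal Saline in the control group, with 4 libraries in each group. Both groups therefore carried the catheter and pump, and no mouse without surgery was part of the comparison. The labels gave neither the sex nor the age of the mice.

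Sulfation adds a sulfate group to a hydroxyl or amino group, which makes small phenols, catecholamines, steroids and bile acids more water soluble. The sulfate donor is PAPS (phosphoadenosine phosphosulfate). A bifunctional PAPS synthase, Papss1 or Papss2, makes it from inorganic sulfate, which sulfate carriers bring into the hepatocyte. Sulfotransferases of the cytosol then use PAPS for small molecules, and those of the Golgi use it for glycans and proteins. 4-HPAA is a phenolic acid that gut bacteria release from tyrosine, and its phenol hydroxyl is of the kind that enzymes of the Sult1 family can sulfate.

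The 8 libraries held 29559978 to 30673398 estimated counts each, and the difference in mean total between the groups did not pass an exact permutation test (two-sided, p = 0.343). Hepatocyte markers were abundant in every library, with summed levels of 105629 to 133997 CPM (counts of a library set to a common total, with edgeR's normalization factors). The 5 enterocyte markers summed to 43.7 to 66.4 CPM, nearly all from Fabp2 with Alpi at 0 in every library, and the 5 exocrine pancreas markers to 7.93 to 14.2 CPM, with Cela1 the only one tested and Prss2 and Pnlip at 0. Every library also held transcripts of 4 Y-linked genes at a summed 152 to 180 CPM. Libraries with the same replicate number were not treated as pairs. Even so, replicate 4 of Normal Saline and replicate 4 of 4-HPAA deviated from their group means in a similar way across all genes (r = 0.480). These libraries had the highest hepatocyte marker sums (132956 and 133997 CPM) and the lowest Kupffer cell marker sums (71.4 and 64.3 CPM, against 83.6 to 241 in the others). The hepatocyte sum was mostly Alb, which was highest of its group in both libraries (100673 and 96781 CPM). Serpina1c, another hepatocyte marker, was lowest of its group in both (6259 and 6326 CPM). G6pc was lowest of its group in Normal Saline replicate 4 (411 CPM) and highest in 4-HPAA replicate 4 (663 CPM). For Sult1a1, Sult1d1, Sult2a8, Sult5a1, Papss2 and Slc35b2, values without both of these libraries are given beside the values with them.

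All 6 sulfotransferases carry the loop that holds the phosphosulfate of PAPS near their amino terminus. The stretch of coding sequence around this loop is shown for the most abundant complete coding transcript of each gene, because every enzyme of the family uses it to bind PAPS. Capitals mark the codons of the loop. The sequences are from the GENCODE M21 transcripts of GRCm38.
Sult1a1: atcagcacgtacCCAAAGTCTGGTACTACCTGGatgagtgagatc
Sult1b1: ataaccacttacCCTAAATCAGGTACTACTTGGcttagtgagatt
Sult1c2: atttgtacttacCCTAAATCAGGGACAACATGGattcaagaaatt
Sult1d1: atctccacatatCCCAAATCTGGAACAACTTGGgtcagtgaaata
Sult2a8: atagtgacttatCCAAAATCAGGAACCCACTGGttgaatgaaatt
Sult5a1: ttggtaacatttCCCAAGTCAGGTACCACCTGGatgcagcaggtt

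Between any pair of the 6 genes, 15 to 18 of the 21 capital bases were the same. Over their whole coding sequences the 6 genes were 53.9% (Sult1d1 and Sult5a1) to 65.9% (Sult1b1 and Sult1d1) identical. None of the 10 genes shared a stretch of 31 bases, the length kallisto uses by default to assign reads, with another of the 10.

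The PAPS synthases carry a nucleotide-binding loop in their sulfate-activating kinase domain, shown here in the same way, with the loop codons in capitals, for the gene pair that makes the donor.
Papss1: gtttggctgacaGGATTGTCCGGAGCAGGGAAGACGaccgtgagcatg
Papss2: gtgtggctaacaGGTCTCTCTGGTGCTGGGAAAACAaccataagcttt

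In these stretches 16 of the 24 capital bases were the same, and the whole coding sequences of Papss1 and Papss2 were 71.1% identical.

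No difference between 4-HPAA and Normal Saline livers passed the test for any of the 10 genes. With edgeR's quasi-likelihood test and Benjamini-Hochberg adjustment over the 12883 genes tested, 0 of the 10 passed the threshold of 0.05, against a background of 0% of all genes tested, and every one of the 10 adjusted p-values was 1.00. No member reached an unadjusted p under 0.05 either, against 1.75% of all genes tested, and their unadjusted p-values in edgeR ran from 0.218 for Sult1c2 to 0.999 for Papss1. No member had groups that did not overlap in CPM, against 1.2% of all genes tested. In DESeq2, 0 of the 10 members and 2 of all genes (0.0155%) passed the threshold. Of the 10 members 6 were lower and 4 higher with 4-HPAA, where 49.6% of all genes tested were lower, and 8 of the 10 differences were smaller than their own standard error. The median size of the difference was 0.07 on the log2 scale for the members and 0.07 for all genes tested. All 10 members had at least 10 counts in every library, so none was lost to the filter. The labels do not say that the libraries of a group came from separate mice processed separately, so p-values measure the spread between these libraries, and in bulk tissue fewer cells of a type and less RNA per cell cannot be told apart.

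**Figure D1:**
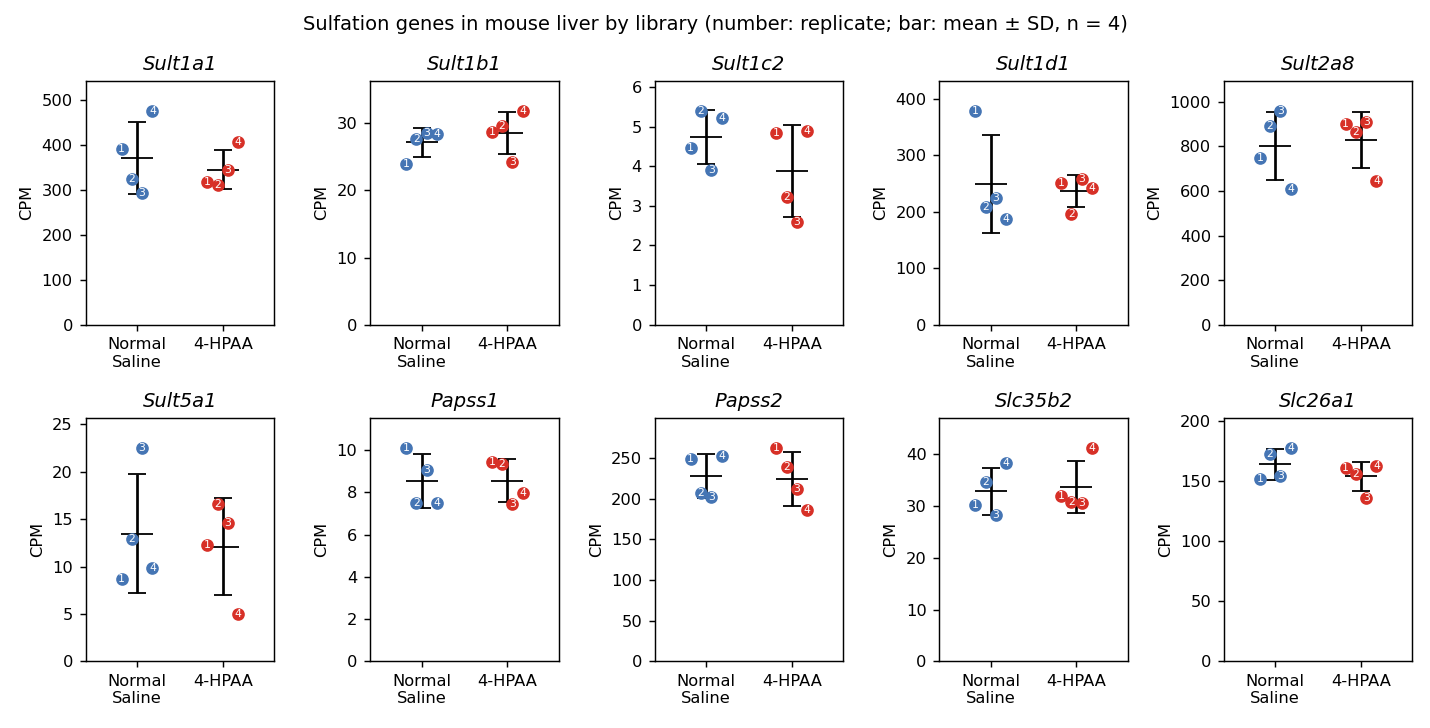
CPM of each of the 10 sulfation genes (linear axes from 0) in the 4 Normal Saline (blue) and 4 4-HPAA (red) libraries, with replicate numbers in the points and bars for mean ± SD. In every panel the groups overlap, and Sult5a1 has the widest spread relative to its level, from 4.96 to 22.5 CPM.

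Sult1a1 (ENSMUSG00000030711, GRCm38 chr7:126672865-126676432, minus strand) is the main enzyme for small phenols such as paracetamol. It stood at 392, 324, 293 and 475 CPM in Normal Saline replicates 1 to 4 and at 318, 312, 345 and 407 CPM in 4-HPAA replicates 1 to 4. The highest value in either group came from replicate 4, and the 4-HPAA values lay inside the Normal Saline range. The means were 371 ± 80.7 and 345 ± 43.3 CPM (SD, n = 4 each), a log2 fold change of −0.10 with a standard error of 0.15. Its 95% interval ran from 0.734-fold to 1.18-fold. Without Normal Saline replicate 4 the log2 fold change was 0.04, and without both libraries numbered 4 it was −0.05. Sult1a1 overlaps Sgf29 on the other strand, which had 265 to 346 counts per library against 8940 to 13840 for Sult1a1, and 11.4% of its 31-base stretches also occur in another gene, mostly the pseudogene Gm6939.

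Sult1d1 (ENSMUSG00000029273, chr5:87554645-87569027, minus strand), which sulfates dopamine and other catecholamines in mice, stood at 377, 209, 225 and 187 CPM in Normal Saline and at 251, 195, 258 and 243 CPM in 4-HPAA livers. Normal Saline replicate 1 was the highest and Normal Saline replicate 4 the lowest, and the other 6 libraries lay between 195 and 258 CPM. The means were 249 ± 86.8 and 237 ± 28.4 CPM (SD, n = 4 each), with a log2 fold change of −0.08 (standard error 0.21). Leaving out Normal Saline replicate 1 turned it to 0.20, and without both libraries numbered 4 it was −0.21 (standard error 0.23).

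Sult1b1 (ENSMUSG00000029269, chr5:87513339-87538195, minus strand), a neighbour of Sult1d1 that acts on phenols and thyroid hormones, was among the steadiest members. Its values were 24.0, 27.7, 28.6 and 28.3 CPM in Normal Saline and 28.7, 29.5, 24.2 and 31.8 CPM in 4-HPAA livers. The groups overlapped, with means of 27.2 ± 2.15 and 28.5 ± 3.16 CPM (SD, n = 4 each) and a log2 fold change of 0.07 with a standard error of 0.10. Its interval ran from 0.904-fold to 1.22-fold.

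Sult1c2 (ENSMUSG00000023122, chr17:53829637-53846339, minus strand) had the fewest counts of the 10, 80 to 157 per library, and the largest fitted difference. It stood at 4.45, 5.38, 3.90 and 5.22 CPM in Normal Saline and at 4.85, 3.23, 2.59 and 4.89 CPM in 4-HPAA livers. 4-HPAA replicates 2 and 3 were below every Normal Saline library, while replicates 1 and 4 were within the Normal Saline range. The means were 4.74 ± 0.689 and 3.89 ± 1.16 CPM (SD, n = 4 each). The log2 fold change was −0.29 with a standard error of 0.22 and an interval from 0.586-fold to 1.15-fold.

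Sult2a8 (ENSMUSG00000030378, chr7:14410686-14446769, minus strand), which sulfates bile acids in mouse liver, had the most counts of the 10, 17813 to 29206 per library. It stood at 747, 890, 957 and 611 CPM in Normal Saline and at 902, 865, 910 and 643 CPM in 4-HPAA livers. Replicate 4 was the lowest of its group in both groups, the opposite of Sult1a1. The means were 801 ± 154 and 830 ± 126 CPM (SD, n = 4 each), a log2 fold change of 0.05 with a standard error of 0.16 and an interval from 0.809-fold to 1.33-fold. Without both libraries numbered 4 the log2 fold change was 0.04.

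Sult5a1 (ENSMUSG00000000739, chr8:123140192-123158315, minus strand), a sulfotransferase with no well-known substrate, was the most variable member. It stood at 8.65, 12.9, 22.5 and 9.81 CPM in Normal Saline and at 12.2, 16.6, 14.6 and 4.96 CPM in 4-HPAA livers, a 4.53-fold span between the highest and the lowest library. Both extremes were single libraries of different groups. The means were 13.5 ± 6.27 and 12.1 ± 5.08 CPM (SD, n = 4 each), and the log2 fold change was −0.15 with a standard error of 0.38. Without both libraries numbered 4 it was −0.02 (standard error 0.31). The biological coefficient of variation that edgeR fitted, 0.371, was higher than that of 97.4% of the genes tested, and the interval from 0.502-fold to 1.61-fold was the widest of the 10. Gm20388 lies over Sult5a1 on the other strand, and kallisto's default settings do not use the strand of a read. Gm20388 had 803 counts in Normal Saline replicate 1, where Sult5a1 had 270, and 197 counts in Normal Saline replicate 3, where Sult5a1 had 686. Of the 4464 stretches of 31 bases in Sult5a1, 3.81% also occur in another gene. The genes sharing the most were Olfr906 (47), Lamtor1 (37) and Zc3h7b (35), and not Gm20388. The part of Gm20388 in the spread of Sult5a1 was not tested.

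The sulfate-activating enzymes had nearly equal means in the groups. Papss1 (ENSMUSG00000028032, chr3:131564768-131643671, plus strand) stood at 10.1, 7.50, 9.08 and 7.51 CPM in Normal Saline and at 9.45, 9.36, 7.43 and 7.97 CPM in 4-HPAA livers. Its means were 8.55 ± 1.27 and 8.55 ± 1.01 CPM (SD, n = 4 each), with a log2 fold change of 0.00 (standard error 0.13). The interval ran from 0.815-fold to 1.23-fold. Papss2 (ENSMUSG00000024899, chr19:32595790-32667187, plus strand) stood at 249, 207, 201 and 253 CPM in Normal Saline and at 262, 238, 212 and 186 CPM in 4-HPAA livers. The highest and the lowest Papss2 library were both 4-HPAA livers, replicates 1 and 4. Its means were 228 ± 27.2 and 225 ± 33.0 CPM (SD, n = 4 each), and its log2 fold change was −0.02 with a standard error of 0.12 and an interval from 0.814-fold to 1.20-fold. Without both libraries numbered 4 the log2 fold change of Papss2 was 0.11 (standard error 0.12).

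The transporters move PAPS or sulfate itself across membranes. Slc35b2 (ENSMUSG00000037089, chr17:45563874-45567671, plus strand), which carries PAPS from the cytosol into the Golgi, stood at 30.2, 34.6, 28.1 and 38.2 CPM in Normal Saline and at 32.0, 30.8, 30.6 and 41.1 CPM in 4-HPAA livers. Replicate 4 was the highest of its group in both groups. The means were 32.8 ± 4.50 and 33.6 ± 5.04 CPM (SD, n = 4 each), with a log2 fold change of 0.04 (standard error 0.13), which was 0.01 without both libraries numbered 4. Slc26a1 (ENSMUSG00000046959, chr5:108669878-108675569, minus strand), the anion exchanger that brings sulfate into hepatocytes, stood at 152, 173, 155 and 178 CPM in Normal Saline and at 161, 156, 136 and 163 CPM in 4-HPAA livers. Only 4-HPAA replicate 3 lay below the Normal Saline range. The means were 164 ± 12.8 and 154 ± 12.2 CPM (SD, n = 4 each). With a log2 fold change of −0.09 and a standard error of 0.09, it had the narrowest interval of the 10, from 0.82-fold to 1.07-fold. Slc26a1 overlaps Idua on the other strand, which had 106 to 179 counts per library against 4216 to 5178 for Slc26a1.

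**Figure D2:**
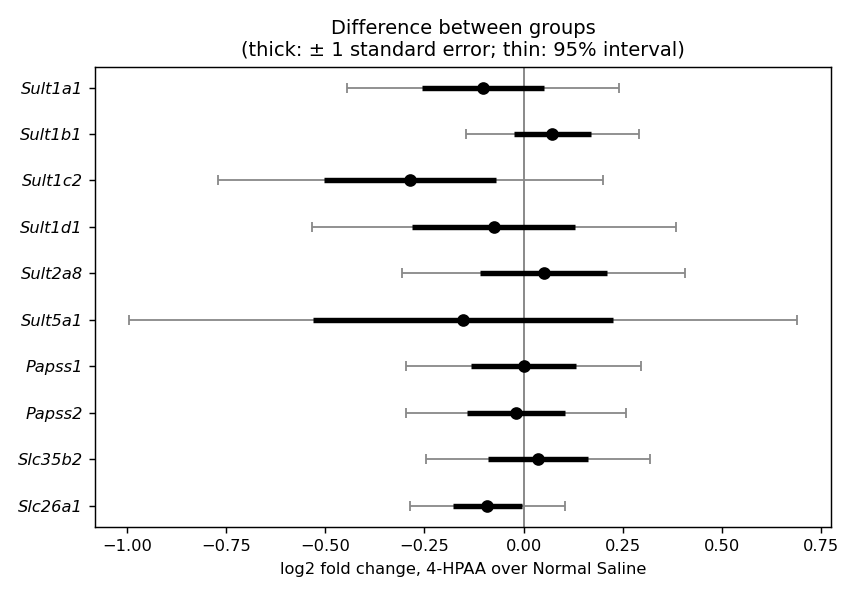
Log2 fold change of each gene, 4-HPAA over Normal Saline (points), with ± 1 standard error (thick bars) and the 95% interval (thin bars) from edgeR over 4 libraries per group. Every interval crosses 0, and only Sult1c2 and Slc26a1 lie more than 1 standard error from it.

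To compare genes with each other, the counts of each transcript were divided by its annotated length, summed per gene and scaled to the same total in every library, and the values in this paragraph are such levels per length, as mean ± SD over all 8 libraries. Sult2a8 came first at 734 ± 132, followed by Sult1a1 at 461 ± 78.0, Sult1d1 at 186 ± 51.3, Papss2 at 107 ± 13.7 and Slc26a1 at 77.0 ± 5.04. Then came Slc35b2 at 32.1 ± 3.55, Sult1b1 at 27.0 ± 2.27, Sult5a1 at 21.4 ± 9.30, Papss1 at 8.21 ± 1.39 and Sult1c2 at 3.80 ± 0.810. Sult2a8 was above 98.8% of all genes tested, and Sult1c2 above 32.0%. Neighbours in this order overlapped in range for Sult2a8 and Sult1a1, where Sult2a8 was higher in 7 of 8 libraries, for Slc35b2 and Sult1b1, for Sult1b1 and Sult5a1, and for Sult5a1 and Papss1. The other 5 neighbouring pairs did not overlap.

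Sult2a8, Sult1a1 and Sult1d1 together made up 95.4% to 97.3% of the summed level per length of the 6 sulfotransferases in every library. The share of Sult1a1 ranged from 25.3% in Normal Saline replicate 3 to 45.6% in Normal Saline replicate 4, and that of Sult2a8 from 40.0% to 58.6% in the same libraries in reverse order. The sum over the 6 genes was 1447 ± 111 in the saline livers against 1419 ± 116 after 4-HPAA (SD, n = 4 each), a difference smaller than the spread within either group. Papss2 made up 91.6% to 94.1% of the PAPS synthase level, and was 10.9 to 15.8 times as high as Papss1.

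**Figure D3:**
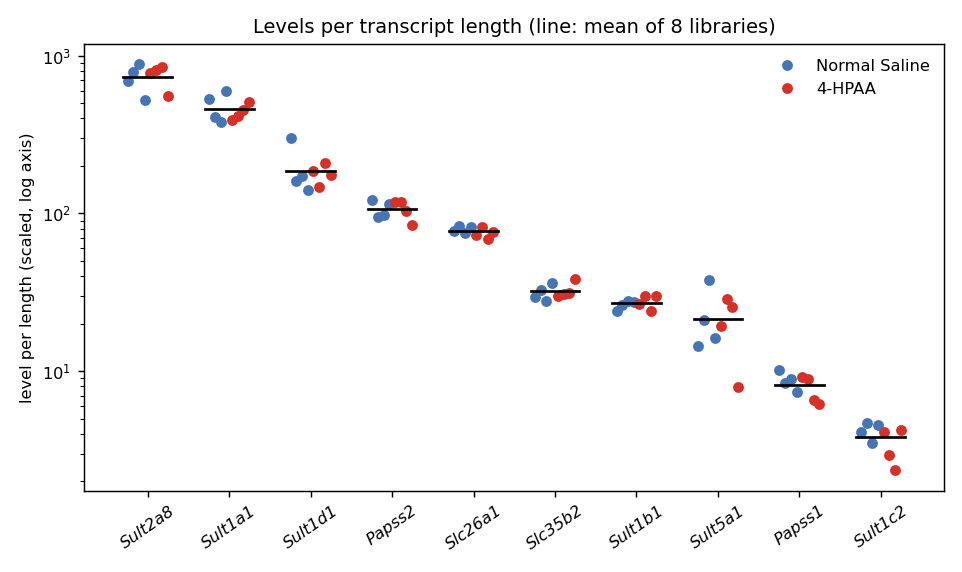
Level per transcript length (counts per base, scaled to the same total in every library, log axis) of the 10 genes in each library, Normal Saline in blue and 4-HPAA in red, with a line at the mean of all 8 libraries. Genes are ordered by that mean, from Sult2a8 at 734 to Sult1c2 at 3.80.

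Correlations between members described how they varied from library to library. Over the 45 pairs of members, Pearson correlations of log2 CPM across the 8 libraries were computed with exact permutation p-values, two-sided, adjusted over the 45 pairs. Of these, 6 pairs had an unadjusted p under 0.05 and 1 an adjusted p under 0.05. The share of such pairs among all genes was not computed, so these counts have no background to be read against. The pair with an adjusted p under 0.05 was Sult1a1 and Sult2a8, which moved in opposite directions (r = −0.947, exact permutation p = 0.000769, adjusted p = 0.0346). Spearman's rho was −0.786 (exact permutation p = 0.0279, adjusted p = 0.314), so by rank no pair passed. Without the libraries farthest from the median of Sult1a1, which were both libraries numbered 4, r was −0.867. After taking out the group means r was −0.948, and it was −0.998 among the 4 Normal Saline and −0.889 among the 4 4-HPAA libraries. The adjusted p stayed under 0.05 only without 4-HPAA replicate 2 or without 4-HPAA replicate 3, and without each of the other 6 libraries it was 0.0714 to 0.165. The hepatocyte marker sum, which was mostly Alb, was highest in the libraries numbered 4, where Sult1a1 was high and Sult2a8 low. The part of cell makeup in this relation was not tested.

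The other pairs did not pass after adjustment. Sult1c2, the least abundant, was most like Slc26a1 (r = 0.875, exact permutation p = 0.00246, adjusted p = 0.0552; rho = 0.881, exact permutation p = 0.00724, adjusted p = 0.231). Without 4-HPAA replicates 2 and 3 that r was 0.840. Sult2a8 and Sult5a1 were most like each other (r = 0.809, exact permutation p = 0.0106, adjusted p = 0.160; rho = 0.762, exact permutation p = 0.0368, adjusted p = 0.331), and r was 0.832 without both libraries numbered 4. Papss2 was most like Papss1, with an r of 0.447 (rho 0.405, adjusted p in exact permutation tests 0.642 and 0.796). For Sult5a1 and Slc35b2 r was −0.795 (exact permutation p = 0.0165, adjusted p = 0.185) and was −0.302 without Normal Saline replicate 3 and 4-HPAA replicate 4, so that relation rests on those libraries.

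**Figure D4:**
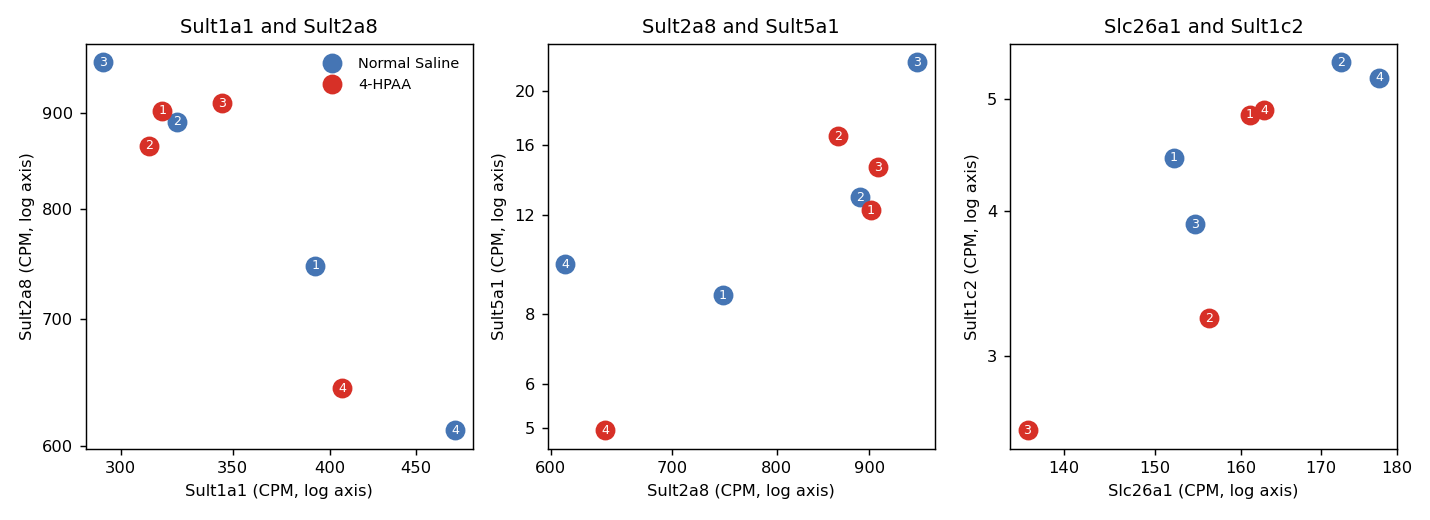
CPM of 3 pairs of members in each library (log axes), Normal Saline in blue and 4-HPAA in red, with replicate numbers in the points. Sult1a1 and Sult2a8 lie on a falling line with both libraries numbered 4 at its lower right end, and the other pairs lie on rising lines.

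The windows before the transcription starts of Sult1a1 and Sult2a8 are shown because these genes varied most against each other and because Sult2a8 has a pair of starts that both gave many counts. RefSeq entries of GRCm38.p6 gave promoter windows for all 10 members. Capitals mark letters found by a search on both strands for the TATA box TATAAA, the CCAAT box, the nuclear receptor element written AGGTCA, the Hnf1 element written GTTAAT and the GC box written GGGCGG. Each sequence covers the 250 bases before the start, written in the direction of the gene, on the minus strand in all cases. The last 14 bases of the Sult1a1 window lie inside transcript Sult1a1-202, which starts earlier than the RefSeq entry. The annotated Sult2a8 gene spans chr7:14410686-14446769, so its window at 14438552-14438801 lies within the gene. Part of its window at 14446588-14446837 lies within the gene as well.
Sult1a1, chr7:126676419-126676668: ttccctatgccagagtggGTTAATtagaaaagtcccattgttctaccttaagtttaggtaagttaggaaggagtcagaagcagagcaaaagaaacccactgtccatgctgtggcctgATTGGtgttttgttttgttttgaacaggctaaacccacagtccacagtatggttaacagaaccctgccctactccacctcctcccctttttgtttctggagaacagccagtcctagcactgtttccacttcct
Sult2a8, chr7:14438552-14438801: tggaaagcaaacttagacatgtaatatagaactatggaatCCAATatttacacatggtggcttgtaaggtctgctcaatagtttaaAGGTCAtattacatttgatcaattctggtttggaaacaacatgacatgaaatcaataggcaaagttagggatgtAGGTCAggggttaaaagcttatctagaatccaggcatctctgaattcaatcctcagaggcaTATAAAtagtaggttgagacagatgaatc
Sult2a8, chr7:14446588-14446837: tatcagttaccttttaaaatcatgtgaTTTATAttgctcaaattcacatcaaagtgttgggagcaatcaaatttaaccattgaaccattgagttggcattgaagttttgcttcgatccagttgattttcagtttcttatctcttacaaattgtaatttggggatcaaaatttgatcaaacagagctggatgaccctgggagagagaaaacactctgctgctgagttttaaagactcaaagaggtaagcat

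The Sult1a1 window held GTTAAT 232 bases before the start and CCAAT on the opposite strand 133 bases before it. The Sult2a8 window at the start of transcript Sult2a8-203 held TATAAA 29 bases before the start, AGGTCA at 164 and 90 bases and CCAAT at 210 bases. The window at the start of transcript Sult2a8-201 held only TATAAA on the opposite strand, 223 bases before the start. Among the 32851 promoter windows of the same length, TATAAA was found in 12.4%, CCAAT in 33.8%, the nuclear receptor letters in 14.0%, the Hnf1 letters in 6.43% and the GC box letters in 32.7%. The GTTAAT letters also stood before Sult1d1, and GGGCGG before Papss1, Papss2 and Sult5a1. TATAAA also stood before Slc26a1, AGGTCA before Sult1b1 and Papss2, and CCAAT before Papss1, Papss2, Slc26a1 and Sult1c2, all on the opposite strand.

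The 10 genes had 44 transcripts in the table, of which 32 had at least 10 counts in every library. None of the 32 passed the threshold in edgeR over the 25533 transcripts tested, against 0% of all transcripts, and 2 had an unadjusted p under 0.05, against 3.83% of all transcripts. These were Slc35b2-205 and Slc26a1-202. Slc35b2-205, the most abundant Slc35b2 transcript, had 509 ± 93.7 counts in the saline livers against 657 ± 77.1 after 4-HPAA (SD, n = 4 each), a log2 fold change of 0.40 with a standard error of 0.15 and overlapping groups. Slc35b2-202 went the other way, with 406 ± 181 and 260 ± 107 counts and a log2 fold change of −0.60 (standard error 0.37). Slc35b2-205 made up 33.9% of the gene in Normal Saline replicate 4 and 77.0% in 4-HPAA replicate 3. Slc26a1-202, with 0.588% of the counts of its gene, had 19.1 ± 1.55 counts with Normal Saline and 36.6 ± 16.1 with 4-HPAA, and was the only member transcript with groups that did not overlap, against 2.1% of all transcripts tested. Adjusted p-values of both in edgeR were 1.00.

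Sult2a8-203 and Sult2a8-201, which begin at the starts shown above, held 50.8% and 36.3% of the Sult2a8 counts. The share of Sult2a8-203 was 45.1% to 60.4% over the libraries and was highest in Normal Saline replicate 4, the library with the least Sult2a8. Sult2a8-203 had 12430 ± 1435 counts with Normal Saline and 12289 ± 1885 with 4-HPAA (log2 fold change 0.01, standard error 0.12), and Sult2a8-201 had 8590 ± 2900 and 9059 ± 1623 (log2 fold change 0.10, standard error 0.23). Sult1a1-202 held 89.6% of the Sult1a1 counts, Sult1d1-201 96.1% of those of Sult1d1 and Papss2-201 83.2% of those of Papss2. Of Sult5a1, the transcript with the most counts, Sult5a1-202 with 33.1%, is annotated as a target of nonsense-mediated decay, and the complete coding Sult5a1-201 held 22.1%.

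How kallisto divided the counts of Papss1 was unstable. Papss1-206 had 0 to 99.4 estimated counts per library and Papss1-205 from close to none to 99.2, while the sum over the gene stayed between 219 and 315 counts. The gene sums of Papss1 are therefore steadier than its transcript values.

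**Figure D5:**
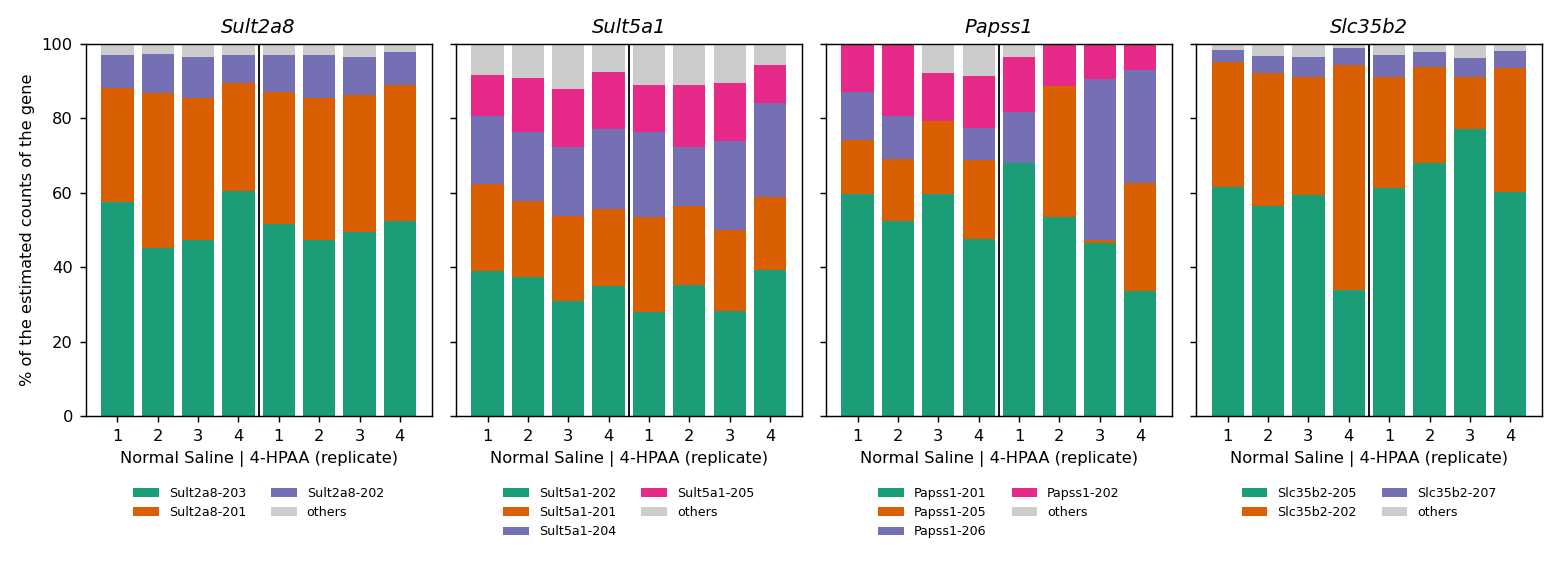
Percent of the estimated counts of a gene assigned to its leading transcripts in each library, Normal Saline at left and 4-HPAA at right of the line in each panel. Sult2a8-203 holds 45.1% to 60.4% of its gene, Slc35b2-205 33.9% to 77.0%, and Papss1-206 0% to 43.2%.

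No other gene list of the pathway held a gene that passed the threshold. Of 15 other cytosolic sulfotransferases, 6 (Sult1c1, Sult2a3, Sult2a4, Sult2a5, Sult3a2 and Sult6b2) were listed at 0 in every library, and only Sult2a7, with 20 to 46 counts, could be tested. Sult2a7 had a log2 fold change of −0.27 with a standard error of 0.23. Sult1e1, the oestrogen sulfotransferase, had 42 counts in Normal Saline replicate 1 and 4 to 15 in the other 7 libraries, and Sult3a1 had 11 counts in that same library and 0 or 1 elsewhere. The 6 sulfotransferase members therefore held nearly all cytosolic sulfotransferase RNA counted in these libraries. The 15 others summed to 1.30 to 3.33 CPM against 1316 to 1555 CPM for the 6 members.

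Of all genes tested in edgeR, 49.6% were lower with 4-HPAA and 0% passed. Among 9 genes for other sulfate carriers and for removal of the PAPS by-product, 7 were tested, 5 were higher and 2 lower, and 0 passed. Bpnt1, the cytosolic phosphatase that clears the by-product, had 49.8 ± 4.17 and 50.2 ± 4.72 CPM (SD, n = 4 each), and Impad1, its Golgi counterpart, 54.2 ± 5.38 and 58.1 ± 8.85 CPM. Of 11 genes that make sulfate or other end products from cysteine, all tested, 3 were higher, 8 lower and 0 passed. Cdo1, the cysteine dioxygenase, had 1119 ± 256 and 1045 ± 123 CPM, and Csad, of the taurine branch, had the largest difference, with a log2 fold change of −0.36 and a standard error of 0.28. Of 11 tested sulfatases and sulfatase-activating genes, 7 were higher, 4 lower and 0 passed. Arsa, the lysosomal arylsulfatase A, had 46.1 ± 6.26 and 46.4 ± 1.10 CPM.

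Of 14 tested Golgi sulfotransferases, which use the PAPS that Slc35b2 carries, 11 were higher and 3 lower with 4-HPAA, where 49.6% of all genes tested were lower. Of the 14, 0 passed and 1 had an unadjusted p under 0.05, against 1.75% of all genes tested. That gene was Chst13, a chondroitin sulfotransferase, at 2.71 ± 0.383 CPM in the saline livers against 3.88 ± 1.03 CPM after 4-HPAA (SD, n = 4 each), with a log2 fold change of 0.52, a standard error of 0.21 and overlapping groups. The median log2 fold change was 0.07 over these 14 genes, −0.05 over the 10 members and 0.00 over all genes tested.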

How the data were processed

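Liver RNA of 8 mouse libraries was sequenced as directional mRNA libraries on an Illumina NovaSeq instrument. The authors checked reads with FastQC (0.11.9) and quantified transcripts with kallisto in Galaxy, and they deposited estimated counts for 119414 transcripts. Those counts are not normalized and include transcripts at 0 in every library, and kallisto spreads reads that fit several transcripts over them. Of the transcripts, 116728 matched GENCODE M21 (GRCm38) by identifier. The other 2686 held 0.703% to 1.06% of counts per library. Counts were summed per gene and rounded.

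A gene entered the edgeR quasi-likelihood test (4.0.16, R 4.3.3, TMM factors) if no library had fewer than 10 counts of it, with two-sided p-values and Benjamini-Hochberg adjustment at 0.05. A standard error was taken as the fitted log2 difference over the root of its F statistic. The study's methods name DESeq2, which was run (1.42.0) as an alternative beside limma (3.58.1). The fit was tested on simulated data. Correlations used SciPy (1.17.1). Coding stretches were translated with Biopython (1.88).

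The members and gene lists were chosen with earlier results of these data known. Named were all 10 members and, from each other list, genes among the 2 highest per length, the 2 largest changes and those with an unadjusted p under 0.05; Sult1e1, Sult3a1, single transcripts and marker genes at 0 were picked after their values were seen, and overlapping genes by position. Protein sequences were not used here. A gene of the sulfatase list that this rule selects is not reported here.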

Additional observations from a re-analysis of the deposited data

Results flagged for a closer look

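In 2 of 20 groups of 4 libraries, 1 library lay far from the other 3, with a gap large enough, relative to the range of the group, to pass Dixon's test at the 95% level. Chance alone gives such a gap in about 1 in 20 groups. Both came from 4-HPAA replicate 4. Sult2a8 was at 643 CPM there and at 865 to 910 CPM in the other 3 4-HPAA libraries. Slc35b2 was at 41.1 CPM there and at 30.6 to 32.0 CPM in the others. In the same library Sult5a1, at 4.96 CPM, and Papss2, at 186 CPM, were the lowest of all 8 libraries. Hepatocyte markers there summed to 133997 CPM, the highest, mostly from Alb (96781 CPM). Without this library the log2 fold change was 0.15 for Sult2a8 and −0.08 for Slc35b2, and neither passed the threshold in edgeR (adjusted p = 1.00). The part of cell makeup was not tested.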

How the results depend on the processing

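Summed per gene, no member passed the adjusted threshold or an unadjusted p under 0.05 under any of the alternatives run: DESeq2, limma-voom, RLE factors, total counts only, the filterByExpr filter, no filter, each library left out, the replicate block, and, chosen after seeing the data, both libraries numbered 4 left out. Over all genes, 0 passed in edgeR, 2 in DESeq2 and 0 to 1 with a library left out, where the 1 needed 4-HPAA replicate 1 to be absent. For transcripts that range was 0 to 1, from the same library. Genes with an unadjusted p under 0.05 numbered 225, 528 without a filter, where 22597 genes were tested, and 196 to 340 with a library left out, the most without 4-HPAA replicate 1.

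Directions of differences this small were not stable. Leaving out a library gave log2 fold changes of −0.20 to 0.044 for Sult1a1, −0.19 to 0.20 for Sult1d1, −0.054 to 0.15 for Sult2a8, −0.34 to 0.21 for Sult5a1, −0.059 to 0.090 for Papss1, −0.10 to 0.055 for Papss2 and −0.081 to 0.12 for Slc35b2. Sult1b1 (0.01 to 0.14), Sult1c2 (−0.42 to −0.13) and Slc26a1 (−0.13 to −0.04) kept their direction. Papss1 turned to −0.00021 in limma-voom, −0.0097 with total counts only, −0.10 for its most abundant transcript and −0.027 without both libraries numbered 4, and Papss2 turned to 0.11 without both. The cause was not tested.

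The replicate block gave 0 genes past the threshold, a smallest adjusted p of 0.118 in edgeR and 336 genes with an unadjusted p under 0.05, and it left 0 members with such a p and changed no call or direction of a member. Deviations of libraries with the same number correlated at 0.0398, 0.168, 0.268 and 0.480, so the numbers do not pair all libraries. Of the 8 libraries, 4 correlated best with their own number, and 4-HPAA replicate 2 correlated best with Normal Saline replicate 3, at 0.466.

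For the correlations, alternatives were chosen after seeing the data. Of the 45 pairs, 1 passed, 0 by Spearman's rho, 0 with total counts only, and 0 to 2 with a library left out, the 2 without Normal Saline replicate 1 or without 4-HPAA replicate 2. For Sult1a1 and Sult2a8 r was −0.882 with total counts only (exact permutation test, adjusted p = 0.118), and −0.972 to −0.909 with a library left out. At 4 libraries per group the 95% intervals above set the precision, widest for Sult5a1, and with 80 counts in one library Sult1c2 is also limited by counting error.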
